A study of Homo sapiens with 8 samples.

Results

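The mRNA levels of 10 genes of the ETS family of transcription factors were followed in A498 cells, a cell line derived from a clear cell renal carcinoma, with and without interleukin-1β (IL1β). The genes were ELF1, ELF3, EHF, ELK3, ETS1, ETS2, ETV4, ETV5, ETV6 and ERF, taken by their symbols from a table of read counts with 59023 gene rows. All 10 were found in the table. They belong to the 28 ETS genes of the human genome, and the other 18 are given more briefly for comparison. IL1β-treated cells received 30 ng/ml of the cytokine for 4 h and make up 4 libraries (replicates 5 to 8), and untreated cells of the same line make up the other 4 (replicates 1 to 4). All cultures were grown in RPMI medium with fetal bovine serum and antibiotics, and RNA was taken from whole trypsinized cultures. A498 is a single tumour line. The study's methods describe the experiments as pairs, while the labels neither give the pairs nor say how the samples of a group were separated, so the p-values measure only the spread between these samples.

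ETS factors share a DNA-binding domain, the ETS domain, that contacts a GGAA core, and many of them are end points of the RAS and MAP kinase cascade. Some activate transcription, as ETS1, ETS2 and ETV4 do, while ETV6 and ERF are known as repressors. Among the listed genes, ELF3 and EHF are the epithelial members of the family. ELF3 is known from other cell types as a gene that inflammatory cytokines switch on through NF-κB, the transcription factor that carries much of the IL1 signal.

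ELF3 had the smallest p-value of the 10 genes, so the stretch before its start that holds an NF-κB motif is shown here, with the only other such stretch found among the listed genes, in ERF. Promoter sequence from RefSeq (GRCh38.p14) was searched over the 250 bases before each annotated start, on both strands, for the NF-κB (κB) motif, for the ETS motif CCGGAAG and for the AP-1 motif TGANTCA. Of the 10 genes, 7 had at least 1 start in the table, with 14 windows in all, and ETS1, ETV4 and ETV5 had none. The κB motif was in 2 of the 14 windows, against 9.96% of the 35116 windows of all genes. CCGGAAG was in 0 of the 14 windows (8.52% of all windows), and TGANTCA was in 0 of the 14 (6.57% of all windows). The matches are given in capitals, 5′ to 3′ on the strand of the gene:
ELF3: ctaaaggccaGGAAATCCCCtccatccaat
ERF: ccccagttctGGGGGACCCCtcaagcactg
The ELF3 stretch is chr1:202010489-202010518 on the plus strand, and its motif covers bases -88 to -79 from the start, read on the minus strand. It overlaps a 5′ UTR exon of 1 of the 10 ELF3 transcripts in GENCODE 44, and no exon of the others. The ERF stretch is chr19:42254847-42254876 on the minus strand, its motif covers bases -231 to -222 and reads as a match on both strands, and it overlaps no exon of ERF's 7 transcripts. A match of letters is a description and no evidence of binding.

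The libraries held 15409093 to 24000727 counts with IL1β and 16610473 to 27040505 counts in untreated cells, so that 1 count was worth 0.0370 to 0.0649 CPM, the unit in which each library is brought to a common total. All levels are CPM scaled by TMM, a normalization for differences in library composition. After a filter on low counts, 15062 genes were tested with edgeR's quasi-likelihood test. NFKBIZ, an early NF-κB target, averaged 149 ± 35.5 CPM with IL1β and 15.4 ± 8.21 CPM in untreated cells (SD, n = 4 each; edgeR adjusted p = 0.00566). NFKBIA, the other gene chosen to check the IL1 response, averaged 219 ± 81.9 CPM with IL1β and 63.9 ± 33.4 CPM in untreated cells. Its groups did not overlap, but it did not pass the adjustment (log2 fold change 1.78, edgeR adjusted p = 0.0902). The markers PAX8, KRT8, KRT18, CDH2 and VIM were abundant in every library, while CDH1, EPCAM, CA9, CDH16 and LRP2 averaged at most 2.51 CPM in either group. Summed leukocyte markers (6 genes) were at 1.91 to 3.63 CPM with IL1β and 1.64 to 1.88 CPM in untreated cells, with CD3E at 0 in all libraries. The 4 endothelial markers summed to 1.84 to 5.02 CPM with IL1β and 2.52 to 6.62 CPM in untreated cells. The 4 fibroblast markers summed to 73.6 to 297 CPM with IL1β and 44.6 to 750 CPM in untreated cells, the 750 CPM being mostly COL1A1 in untreated replicate 4. The part of these markers in the ETS levels was not tested. On the first principal component of all tested genes (42.7% of the variance), IL1β replicate 5 was at -102 and untreated replicate 1 at -59.5, apart from the other 6 libraries at 18.8 to 37.2. These libraries were grouped by this position only, and they are called a pair below without being known as an experimental pair. Values without this pair are given beside many of the results.

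None of the 10 genes rose or fell past an adjusted p of 0.05 in edgeR's quasi-likelihood test, where all 10 passed the filter. Over all genes tested, 0.929% rose and 0.0598% fell at that threshold. In simulated counts, edgeR's test recovered 8 of 97 genes with a true log2 fold change of 1 in size. A gene that did not pass is therefore not shown to be unchanged. At an unadjusted p under 0.05, 2 of the 10 were higher with IL1β (ELF3 and ETV6), against 6.23% of all genes, and 0 of the 10 were lower, against 4.55% of all genes. DESeq2 called 1 of the 10 higher, ELF3 (adjusted p = 0.0217), against 2.81% of all genes, and limma-voom called 0 of the 10. The log2 fold change was above 0 for 7 of the 10 genes and for 47.8% of all genes, with a median of 0.28 over the 10 and of -0.02 over all genes. ELF3 was the only one of the 10 with every IL1β library above every untreated one, a separation seen in 4.6% of all genes. None of the 10 had every IL1β library below every untreated one, which 3.41% of all genes had.

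**Figure D1:**
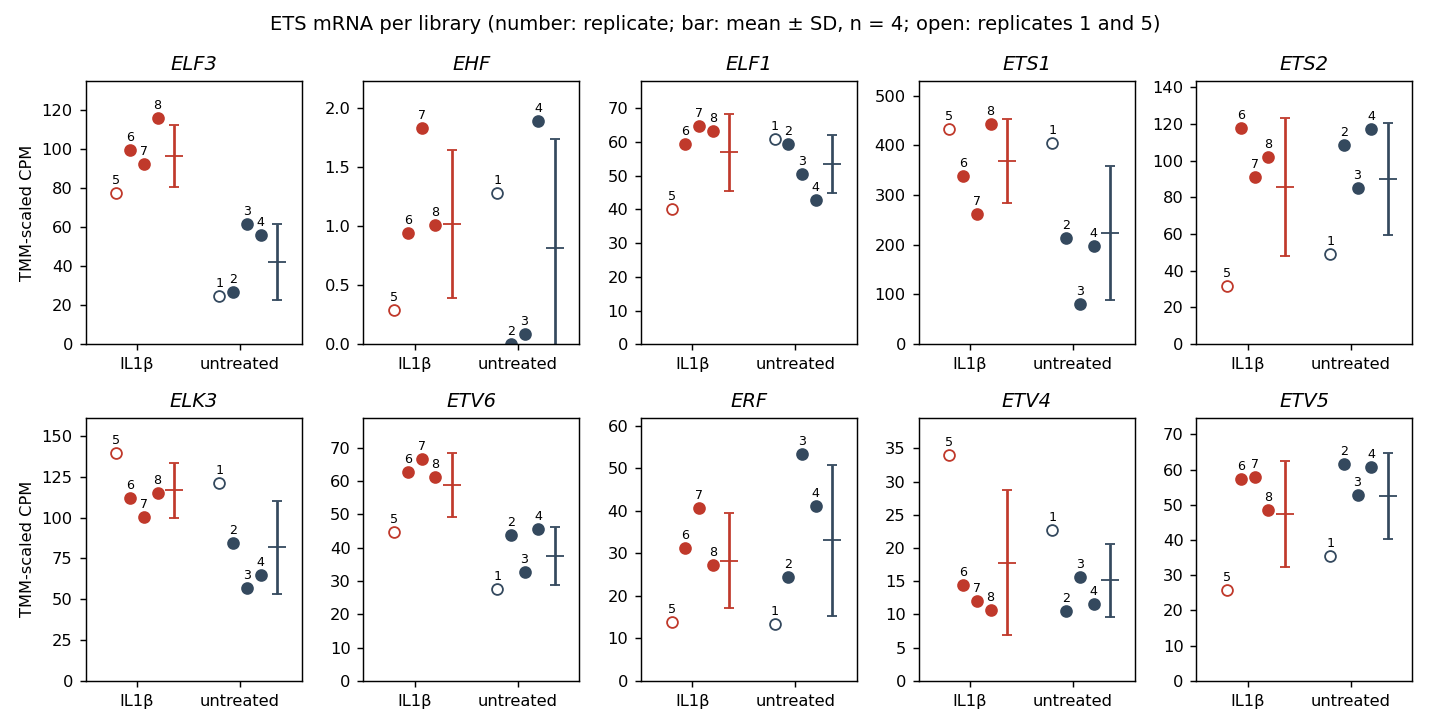
TMM-scaled CPM of the 10 ETS genes in each library, IL1β on the left of each panel and untreated on the right, with the replicate number above each point. Bars are the mean and SD of 4 libraries (cut at 0 for EHF), and open points are the pair of libraries that stood apart. ELF3 is the only panel in which the lowest IL1β point (77.3 CPM) lies above the highest untreated point (61.6 CPM).

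ELF3 (chr1:202007945-202017183, plus strand, hg38) encodes an activator of epithelial differentiation that also takes part in inflammatory gene expression. Its level was 77.3, 99.5, 92.3 and 116 CPM in IL1β replicates 5 to 8, against 24.4, 26.5, 61.6 and 56.1 CPM in untreated replicates 1 to 4. The treated libraries lay close together and above all untreated ones, whereas the untreated libraries split into a lower pair (replicates 1 and 2) and a higher pair (replicates 3 and 4). The means were 96.2 ± 15.9 CPM with IL1β and 42.2 ± 19.4 CPM in untreated cells (SD, n = 4 each), and the coefficient of variation was 16.5% with IL1β and 46.0% in untreated cells. The log2 fold change was 1.19 (SE 0.32, 95% interval 0.47 to 1.91), which did not pass the adjustment over all genes (edgeR adjusted p = 0.157, unadjusted p = 0.0044). It ranked 421 of the 15062 genes by p. The exact two-sided permutation test over the 8 libraries gave p = 0.0286, the smallest that 4 against 4 allows. This value restates that the groups did not overlap and adds nothing to it, and 4.6% of all genes had the same separation. With any 1 library left out, the log2 fold change was 0.999 to 1.43 and the edgeR adjusted p 0.131 to 0.384, and without the pair that stood apart they were 1.11 and 0.104. In bulk RNA, fewer cells expressing a gene and less of its RNA per cell cannot be told apart.

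The antisense gene ELF3-AS1 lies on the other strand of ELF3, and since the strand setting of the counting is not given in the sources used here, their reads may not be fully separated. ELF3-AS1 was at 7.05 ± 1.90 CPM with IL1β and 5.04 ± 0.44 CPM in untreated cells (SD, n = 4 each), far below ELF3 in counts (log2 fold change 0.48, edgeR adjusted p = 0.548). Across the 8 libraries, the genes whose log2 CPM followed ELF3 most closely were GMEB2 (Pearson r = 0.99), MAFG, CLK3, TRPT1 and STAT6 (each r = 0.98). This is a description over 8 libraries that share the same treatment groups and the same pair of outlying libraries. MAFG, a small MAF protein that dimerizes with CNC factors, averaged 212 ± 23.3 CPM with IL1β and 115 ± 27.9 CPM in untreated cells (SD, n = 4 each).

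EHF (chr11:34621093-34663288, plus strand), the closest relative of ELF3 among the listed genes, is a factor of epithelial tissues. It was barely detected, with 4, 22, 38 and 15 counts in IL1β replicates 5 to 8 and 35, 0, 2 and 38 counts in untreated replicates 1 to 4. In TMM-scaled CPM these were 0.294, 0.944, 1.83 and 1.01 with IL1β, against 1.28, 0, 0.0840 and 1.89 in untreated cells. The groups overlapped along their whole length, and the spread between libraries left a wide interval (log2 fold change 0.33, 95% interval -1.93 to 2.59, edgeR adjusted p = 0.953). Without the pair that stood apart the log2 fold change of EHF was 0.96 (edgeR adjusted p = 0.795). ELF1 (chr13:40931924-41061440, minus strand), known mainly for its role in lymphoid and myeloid genes but present in many tissues, had 40.3, 59.5, 64.9 and 63.2 CPM with IL1β, against 61.0, 59.5, 50.6 and 42.7 CPM in untreated cells. Its groups overlapped, with the lowest value in IL1β replicate 5. The log2 fold change of ELF1 was 0.09 with a 95% interval from -0.36 to 0.54 (edgeR adjusted p = 0.931). Without the pair that stood apart the log2 fold change of ELF1 was 0.32 (edgeR unadjusted p = 0.0758, adjusted p = 0.449).

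ETS1 (chr11:128458761-128587558, minus strand) is a founding member of the family, an activator that RAS signalling switches on by phosphorylation. It was the most abundant of the 10 per kilobase of exon in both groups. Its level was 432, 338, 262 and 443 CPM with IL1β, against 405, 213, 80.3 and 198 CPM in untreated cells. The overlap came from untreated replicate 1, and the other 3 untreated libraries lay below all IL1β libraries. The mean was 369 ± 85.3 CPM with IL1β and 224 ± 134 CPM in untreated cells (SD, n = 4 each), and the log2 fold change of 0.72 (SE 0.41, 95% interval -0.20 to 1.64) did not pass (edgeR adjusted p = 0.606). Without the pair that stood apart the log2 fold change was 1.11 (edgeR unadjusted p = 0.0118, adjusted p = 0.182). With any 1 library left out it was 0.44 to 1.17, the lowest without untreated replicate 3. ETS2 (chr21:38805183-38824955, plus strand), the close paralog of ETS1 with the same MAP kinase site, gave another picture. It had 31.7, 118, 91.1 and 102 CPM with IL1β, against 49.0, 109, 85.1 and 117 CPM in untreated cells. In each group 1 library was low, IL1β replicate 5 and untreated replicate 1, and the remaining 3 covered about the same range. The ETS2 log2 fold change was -0.07 (95% interval -0.96 to 0.82, edgeR adjusted p = 0.978). Whether the changes of ETS1 and ETS2 differ from each other was not tested.

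ELK3 (chr12:96194375-96269824, plus strand) is a ternary complex factor, which binds DNA together with SRF and switches between repression and activation when phosphorylated. It had 140, 112, 100.1 and 115 CPM with IL1β, against 121, 84.2, 57.0 and 64.9 CPM in untreated cells. As for ETS1, untreated replicate 1 was the only untreated library inside the IL1β range. ELK3 averaged 117 ± 16.6 CPM with IL1β and 81.7 ± 28.5 CPM in untreated cells (SD, n = 4 each), with a log2 fold change of 0.51 (SE 0.25, 95% interval -0.04 to 1.06, edgeR adjusted p = 0.508). Without the pair that stood apart it was 0.69 (edgeR unadjusted p = 0.0035, adjusted p = 0.0875).

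ETV6 and ERF are the listed repressors, and whether their changes differ from each other was not tested. ETV6 (chr12:11649674-11895377, plus strand), which polymerizes through its N-terminal pointed domain and is a known fusion partner in leukaemia, had 44.7, 62.7, 66.6 and 61.3 CPM with IL1β, against 27.7, 43.8, 32.8 and 45.5 CPM in untreated cells. The groups overlapped only by IL1β replicate 5, which lay just under untreated replicate 4. ETV6 averaged 58.8 ± 9.66 CPM with IL1β and 37.5 ± 8.60 CPM in untreated cells (SD, n = 4 each), with a log2 fold change of 0.65 (SE 0.21, 95% interval 0.18 to 1.13) that did not pass the adjustment (edgeR adjusted p = 0.267, unadjusted p = 0.0124). Without the pair that stood apart the fold change was nearly the same, 0.66, with an edgeR adjusted p of 0.0718. ERF (chr19:42247569-42255128, minus strand), a repressor that leaves the nucleus when ERK phosphorylates it, had 14.0, 31.3, 40.7 and 27.3 CPM with IL1β, against 13.4, 24.4, 53.3 and 41.2 CPM in untreated cells. Its untreated values spread widely and held the whole IL1β range (log2 fold change -0.22, 95% interval -1.20 to 0.75, edgeR adjusted p = 0.920).

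ETV4 and ETV5 form the PEA3 group with ETV1, activators that act downstream of receptor tyrosine kinases and, in the mouse, in the branching of the developing kidney. ETV4 (chr17:43527844-43579620, minus strand) had 34.0, 14.4, 12.0 and 10.7 CPM with IL1β, against 22.7, 10.5, 15.6 and 11.6 CPM in untreated cells. The highest value of each group was again in the pair that stood apart, and the other 6 libraries lay between 10.5 and 15.6 CPM. The log2 fold change of ETV4 was 0.23 with all libraries (95% interval -0.68 to 1.13, edgeR adjusted p = 0.906) and -0.29 without IL1β replicate 5. DHX8, on the other strand of ETV4, was at 92.9 CPM with IL1β and 88.2 CPM in untreated cells on average. ETV5 (chr3:186046314-186110318, minus strand) had 25.8, 57.3, 57.9 and 48.5 CPM with IL1β, against 35.4, 61.6, 52.7 and 60.8 CPM in untreated cells. Here the pair that stood apart was lowest in each group, and the log2 fold change was -0.15 (95% interval -0.78 to 0.48, edgeR adjusted p = 0.914).

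**Figure D2:**
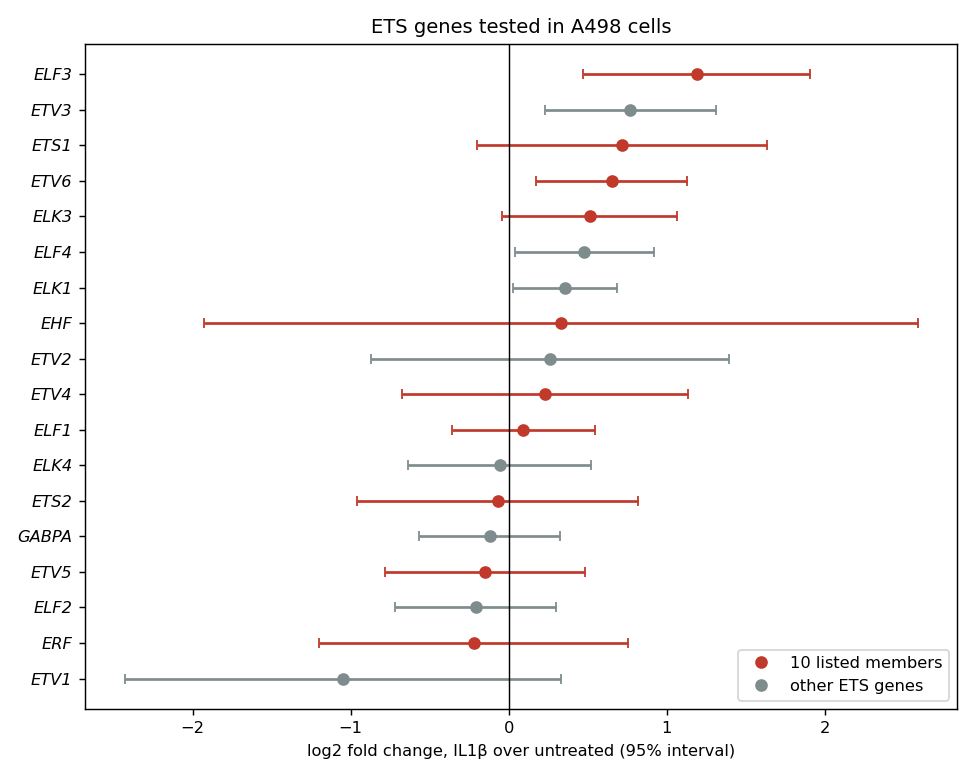
Log2 fold change of IL1β over untreated cells (x axis) with its 95% interval for the 18 ETS genes that could be tested, the 10 listed genes in red and the other 8 in grey. The intervals of ELF3 and ETV6 lie above 0 among the listed genes (lower ends 0.47 and 0.18), and EHF has the widest (-1.93 to 2.59).

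The shift in the pair of outlying libraries ran across the list in both directions. For 7 of the 10 genes, IL1β replicate 5 and untreated replicate 1 both lay outside the range of the other 3 libraries of their group, in the same direction. ELK3 and ETV4 were above it in both, and ELF3, ETS2, ETV5, ETV6 and ERF were below it in both. Such a pattern was common in these data, with 46.4% of all tested genes (23.0% above and 23.4% below in both). Both groups hold 1 such library, and the cause of the shift was not tested.

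**Figure D3:**
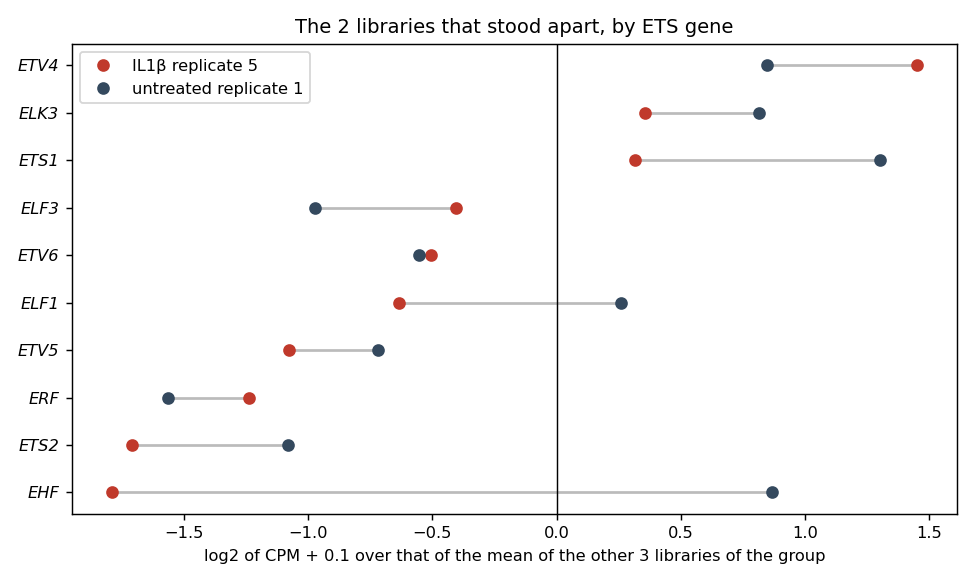
For each of the 10 ETS genes, the log2 of CPM plus 0.1 in IL1β replicate 5 (red) and untreated replicate 1 (dark blue) over that of the mean of the other 3 libraries of the same group. ETV4, ELK3 and ETS1 lie right of 0 in both libraries, ELF1 and EHF lie on opposite sides, and the other 5 genes lie left of 0 in both.

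Between genes, levels were compared as CPM per kilobase of merged exons (GENCODE 44). ETS1 was highest on this scale, with a mean of 51.6 with IL1β and 31.4 in untreated cells. ELK3 (25.1 with IL1β, 17.6 untreated), ETS2 (17.2 with IL1β, 18.1 untreated) and ELF1 (12.8 with IL1β, 12.0 untreated) came within the upper part of the order in both groups. ELF3 averaged 13.4 CPM per kilobase with IL1β and 5.87 in untreated cells, and among all 28 ETS genes it was in place 5 with IL1β and in place 10 in untreated cells. Lower down were ERF (8.66 with IL1β, 10.1 untreated), ETV5 (8.20 with IL1β, 9.11 untreated), ETV6 (8.14 with IL1β, 5.18 untreated) and ETV4 (5.06 with IL1β, 4.30 untreated). EHF was at 0.154 with IL1β and 0.123 in untreated cells. Most neighbours in this order overlapped in their ranges over libraries. The exceptions were ETS1 over ELK3 with IL1β, and ETV4 over EHF in both groups. With the longest single transcript as the length in place of merged exons, ELF3 was at 19.3 CPM per kilobase with IL1β and 8.45 in untreated cells.

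The 10 levels per kilobase summed to 141, 155, 139 and 166 CPM per kilobase in IL1β replicates 5 to 8, against 130, 114, 95.01 and 116 in untreated replicates 1 to 4. The IL1β sums lay above the untreated ones, and no test was run on this sum. Abundant genes such as ETS1 weigh most in it, so it does not show that the 10 genes as a set were higher. ETS1 made up 26.3% to 42.8% of the sum with IL1β and 11.8% to 43.5% in untreated cells. ELF3 made up 7.61% to 9.69% with IL1β and 2.61% to 9.03% in untreated cells, the highest untreated share being that of replicate 3.

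**Figure D4:**
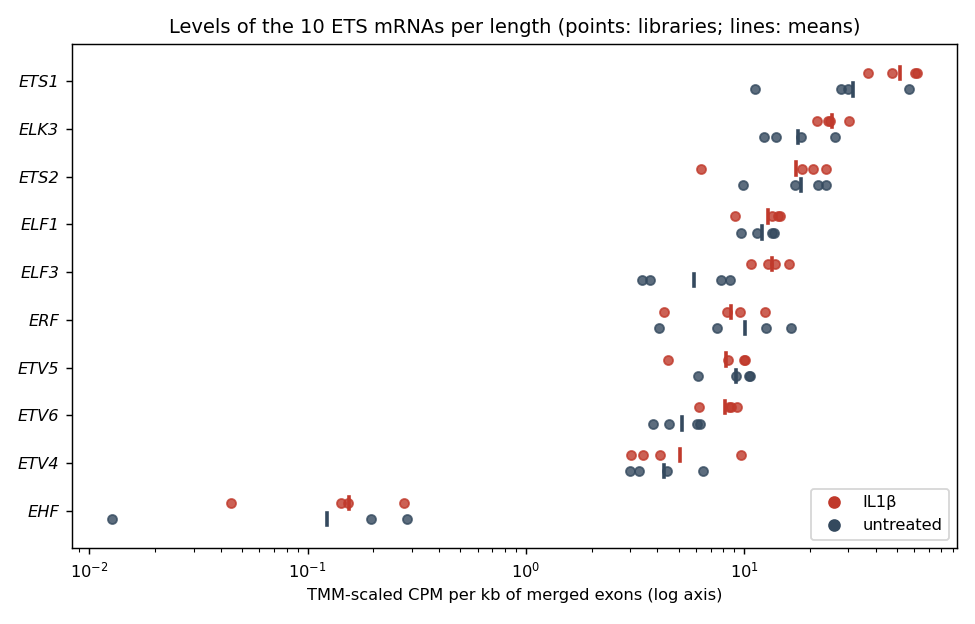
TMM-scaled CPM per kilobase of merged exons (log axis) of the 10 ETS genes, with 1 point per library and a vertical line at each group mean, IL1β above untreated in each row. EHF in untreated replicate 2 was at 0 and is not drawn. ETS1 leads with means of 51.6 with IL1β and 31.4 untreated, and EHF is lowest with 0.154 with IL1β and 0.123 untreated.

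Of the other 18 ETS genes, 8 passed the filter and 10 did not, and 0 of the 8 passed an adjusted p of 0.05 in edgeR, DESeq2 or limma-voom. At an unadjusted p under 0.05 in edgeR, 3 of the 8 were higher with IL1β (ETV3, ELK1 and ELF4) and 0 were lower, against 6.23% and 4.55% of all genes, with a median log2 fold change of 0.10. ELK1, a ternary complex factor like ELK3, had 32.7, 31.3, 30.6 and 33.6 CPM with IL1β, against 26.2, 23.4, 23.2 and 27.3 CPM in untreated cells. The groups did not overlap, as in 4.6% of all genes, and both were tight, but the step was small (log2 fold change 0.36, SE 0.15, edgeR adjusted p = 0.405). For comparison, the log2 fold change was 0.32 for the reference gene ACTB and 0.23 for GAPDH, both with overlapping groups (edgeR adjusted p = 0.627 and 0.724). ETV3, a repressor related to ERF, had 91.9, 62.8, 59.4 and 94.9 CPM with IL1β, against 62.1, 44.9, 35.0 and 39.2 CPM in untreated cells (log2 fold change 0.77, SE 0.24, edgeR adjusted p = 0.241). Only untreated replicate 1 reached into the IL1β range, and without the pair that stood apart the log2 fold change was 0.89 (edgeR adjusted p = 0.0662). ELF4, a relative of ELF1, had 99.3, 114, 95.6 and 141 CPM with IL1β, against 76.3, 69.7, 72.8 and 104 CPM in untreated cells (log2 fold change 0.48, edgeR adjusted p = 0.407).

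ETV1, the third gene of the PEA3 group, had the largest negative log2 fold change of the 18 tested ETS genes, -1.05 (SE 0.62, edgeR adjusted p = 0.617). It had 0.808, 4.72, 6.85 and 4.37 CPM with IL1β, against 2.38, 10.9, 12.4 and 9.26 CPM in untreated cells. In each group the library that stood apart was lowest, and without that pair the log2 fold change was -1.01 with an edgeR adjusted p of 0.0789. ELK4 (54.9 CPM with IL1β, 57.0 untreated), GABPA (26.7 with IL1β, 29.1 untreated) and ELF2 (18.7 with IL1β, 21.6 untreated) had log2 fold changes between -0.21 and -0.06. ETV2 averaged 0.898 CPM with IL1β and 0.731 CPM in untreated cells. Of the 10 genes that did not pass the filter, ELF5, FEV and SPIC had 0 counts in every library. ERG had 5 counts with IL1β, all in replicate 6, and 0 in untreated cells (exact permutation p = 1). With the untreated group set at a floor of 3 counts, the ratio was 2.05, which leaves out the counting error of the IL1β counts. Without that library ERG was at 0 in both groups. ETV3L had 8 counts with IL1β and 0 in untreated cells, a ratio of 3.28 against the same floor (exact permutation p = 0.143). FLI1, ETV7, SPI1, SPIB and SPDEF had 2 to 20 counts per group. Several of these, such as SPI1 and FLI1, are known as factors of blood and endothelial cells.

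Partners and regulators of ETS factors were described over a list of 37 genes, among them cofactors, MAP kinases and feedback inhibitors. Of the 36 that were tested, 1 rose, 0 fell and 35 did not pass in edgeR, with 4 higher and 2 lower at an unadjusted p under 0.05 and a median log2 fold change of 0.10 (-0.02 over all genes). The shares over all genes were 0.929% that rose and 0.0598% that fell, with 6.23% higher and 4.55% lower at the unadjusted threshold. The gene that rose was PAX8, a factor of the renal lineage from the family whose member PAX5 recruits ETS1 to DNA in B cells. PAX8 averaged 422 ± 72.4 CPM with IL1β and 149.8 ± 49.0 CPM in untreated cells (SD, n = 4 each; log2 fold change 1.495, SE 0.24, edgeR adjusted p = 0.0239), and its groups did not overlap. The call was lost without untreated replicate 1, 2 or 3 or IL1β replicate 6, 7 or 8, with an edgeR adjusted p of up to 0.107. PAX8-AS1, on the other strand, was at 2.58 CPM with IL1β and 2.47 CPM in untreated cells.

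Known target genes of ETS factors were described over a list of 46 genes, of which 40 were tested. In edgeR 7 rose (NOS2, CXCR4, CCL5, ICAM1, CSF2, CXCL8 and CCL2), 0 fell and 33 did not pass. With an unadjusted p under 0.05, 13 were higher and 3 were lower, the lower ones being EGR1, FOS and TGFBR2. Over all genes 0.929% rose and 0.0598% fell, and 6.23% were higher and 4.55% lower at the unadjusted threshold. The log2 fold changes of the 40 had a median of 0.38, against -0.02 for all genes. The chemokines CCL5, CXCL8 and CCL2 as well as ICAM1, CSF2 and NOS2 are textbook targets of NF-κB too, and the list was written with earlier results of these data known, so it is not independent evidence of a direction. CXCR4, the receptor of CXCL12, averaged 257 ± 24.2 CPM with IL1β and 98.2 ± 11.7 CPM in untreated cells (SD, n = 4 each; log2 fold change 1.39, SE 0.16, edgeR adjusted p = 0.00566). Its edgeR adjusted p was 0.00346 to 0.0377 with any 1 library left out. NOS2, the inducible nitric oxide synthase whose promoter ELF3 is known to bind together with NF-κB, averaged 15.1 ± 8.04 CPM with IL1β and 0.153 ± 0.10 CPM in untreated cells (SD, n = 4 each; edgeR adjusted p = 0.00553). The number of target genes that rose was 10 without the pair that stood apart, 3 without untreated replicate 1, 2 without untreated replicate 2, 2 without IL1β replicate 6, 3 without IL1β replicate 7 and 2 without IL1β replicate 8. Over all genes, the number that rose moved too, from 140 with all libraries to 378 without that pair. It was 107 without untreated replicate 1 and 58 without untreated replicate 2. Without IL1β replicate 6, 7 or 8 it was 42, 59 and 38.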

How the data were processed

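RNA-seq libraries of 8 A498 samples were prepared from 100 ng of RNA with a stranded kit. The authors aligned reads with STAR 2.5.3a to hg38 and deposited featureCounts read counts per gene symbol, and the strand setting of the counting is not given in the sources used here. Of 59050 rows, 27 carry a date in place of a symbol and were left out (0.197% to 0.236% of the counts of a library). No pair of libraries agreed within sampling noise (chi-square per gene of at least 14.8).

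From the deposited counts, genes passing filterByExpr were scaled by TMM and tested with edgeR 4.0.16 (glmQLFit, glmQLFTest) in R 4.3.3, IL1β against untreated, with Benjamini-Hochberg adjustment over all 15062 genes. Alternatives were DESeq2 1.42.0, limma-voom (limma 3.58.1), RLE factors, library size only, other filters, and libraries left out. The study names limma on pairs, and the labels do not give the pairs. Scripts were tested on counts simulated with the means, spread and library sizes of these data. At a true log2 fold change of 1 in size, edgeR recovered 8 of 97 genes, DESeq2 36 of 97 and limma-voom 11 of 97. At a size of 2, they recovered 75, 84 and 73 of 96 genes. Unchanged genes called numbered 3 in edgeR, 31 in DESeq2 and 5 in limma-voom. Single values were compared by an exact permutation test (scipy 1.17.1), as for genes under the filter.

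The members and the gene lists were chosen with earlier results of these data known. All 10 members are named. Other ETS genes are named where they averaged 1 CPM or more, with lower ones by counts. In the partner and target lists up to 4 called genes were to be named. The other 3 called targets, and the 3 targets lower at an unadjusted p under 0.05, are named in addition, after their values were seen. Gene positions are from GENCODE 44, which matched 36718 symbols. Counts limit precision, and every ratio against a floor of 3 counts covers counting error in the untreated group only.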

Additional observations from a re-analysis of the deposited data

Results flagged for a closer look

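Among the 18 tested ETS genes, 36 groups of 4 libraries were checked for a library far from the others, and chance flags about 1 in 20 groups. In 1 of them, ETV4 with IL1β, replicate 5 at 34.0 CPM lay far above the other 3 IL1β libraries, which were at 14.4, 12.0 and 10.7 CPM.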

How the results depend on the processing

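The number of the 10 genes that rose was 0 in edgeR and 1 (ELF3) in DESeq2, and likewise 0 and 1 over all 28 ETS genes. Partners and regulators that rose numbered 1 in edgeR, 2 in DESeq2, 2 without the pair of outlying libraries and 0 to 1 with any 1 library left out, and 1 fell in DESeq2. Target genes that rose numbered 7 in edgeR, 13 in DESeq2, 10 without the pair, 10 with no filter on low counts and 2 to 8 with any 1 library left out, and 1 fell in DESeq2. With any 1 library left out, 38 to 218 genes rose over all genes. Over all genes, 140 rose and 9 fell in edgeR, against 423 and 109 in DESeq2, 378 and 54 without the pair, and 94 and 13 with library size only, where the median change over all genes was -0.18 on the log2 scale. In the other alternatives 0 of the 28 ETS genes passed.

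Signs turned only in small fold changes. The log2 fold change of ELF1 was -0.052 with library size only. That of EHF was -0.07 without untreated replicate 2, -0.05 without untreated replicate 3 and -0.11 without IL1β replicate 7. ETS2 was at 0.03 without untreated replicate 2, 0.09 without untreated replicate 4, 0.20 without IL1β replicate 5 and 0.021 without the pair. ETV4 was at -0.29 without IL1β replicate 5 and -0.0077 without the pair. ETV5 was at 0.05 without IL1β replicate 5, and ERF at 0.11 without untreated replicate 3 and 0.0025 without IL1β replicate 5. ELK4 was at 0.016 in limma-voom, 0.25 without untreated replicate 1 and 0.26 without the pair. With any 1 library left out, the range was -0.11 to 1.11 for EHF, -0.27 to 0.20 for ETS2, -0.29 to 0.50 for ETV4, -0.30 to 0.05 for ETV5, -0.48 to 0.11 for ERF and -0.20 to 0.25 for ELK4. The cause was not tested. No paired analysis was possible because the labels do not say which treated and untreated cultures belong together. The spread between libraries left EHF with a wide interval.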
